A study of Mus musculus with 2 samples.

Results

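The incisor tissue held 102 barcodes that read as monocytes, out of 4543 filtered barcodes (2.25%, exact binomial 95% interval 1.83% to 2.72%). They were chosen by their own counts of unique molecular identifiers (UMIs, which count captured transcripts). A member had at least 3 UMIs of Ly6c2, Ccr2, Chil3 and Ace in sum and at least 3 of Lyz2 and Csf1r. It had at most 2 UMIs of the C1q genes of macrophages (C1qa, C1qb, C1qc) and at most 4 of the neutrophil granule genes Ngp, Camp and Retnlg. It had 0 UMIs of Cd209a, Flt3 and Siglech, of Cd79a, and of Cd3d, Cd3e and Cd3g, which mark dendritic, B and T cells. Before that, barcodes needed at least 500 detected genes, at most 20% mitochondrial UMIs and at most 5% haemoglobin UMIs. Of 5336 barcodes with enough genes, the mitochondrial limit removed 561 and the haemoglobin limit 232.

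The tissue came from lower incisors of untreated C57BL/6 mice of 4 weeks, whose pulp was taken with its dental epithelium, digested with collagenase and captured in droplets for 3′ sequencing. The labels name no genetic change and do not say how many animals were pooled. The 2 GEO samples are 2 sequencing lanes, and the deposited matrix does not say which barcode belongs to which lane, so all counts are 1 sample without replicates. For that reason nothing was tested. Intervals (95%) are exact and cover counting error only, and no difference between groups has a replicate check.

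Monocytes are blood phagocytes made in bone marrow from granulocyte-monocyte progenitors, and their survival depends on the receptor encoded by Csf1r. Classical mouse monocytes carry Ly6C on their surface, leave the marrow and enter tissues through the chemokine receptor Ccr2, and can become macrophages, dendritic cells or osteoclasts there. Non-classical monocytes, low in Ly6C, patrol the walls of vessels, depend on the nuclear receptor Nr4a1 and express Ace, Treml4 and the integrin chain Itgal. The incisor of the mouse grows throughout life and its pulp is rich in vessels, so blood cells can come with the tissue.

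The genes that chose the members were spread unevenly over them, and their values are a description of the choice. Ly6c2, the gene of the Ly6C antigen (mm10, chr15:75108158-75111970 in GENCODE M21), had between 0 and 46 UMIs per member with a median of 1, and 61 members had any. Ccr2, the receptor for Ccl2 (chr9:124101950-124113557), had 0 to 8 UMIs with a median of 2, and 78 members had any. Chil3, a chitinase-like secreted protein (chr3:106147554-106167564), had 0 to 90 UMIs with a median of 2 and was found in 69 members. Ace, the angiotensin-converting enzyme (chr11:105967945-105989964), had 0 to 7 UMIs with a median of 0 and was found in 38 members. Ly6c2 and Ace were thus found in different barcodes for the most part: 52 members had Ly6c2 without Ace (51.0%), 29 had Ace without Ly6c2 (28.4%), 9 had both (8.82%) and 12 had neither (11.8%). Lyz2, lysozyme, was present in every member with 3 to 252 UMIs and a median of 36.5, and Csf1r was present in 68 members with at most 6 UMIs. Ly6c1, a near-identical neighbour of Ly6c2, had 1 UMI, and how reads that fit both were counted is not known. Of classical markers outside the rule, Plac8 and S100a4 each had a UMI in 91.2% of the members and Fn1 in 59.8%, while Treml4, a non-classical marker, had one in 28.4%.

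The members were not deep. They held 433592 UMIs in all, from 796 to 25542 per barcode with a median of 3324.5, and from 527 to 4416 detected genes with a median of 1252. The sum of the 4 monocyte genes was 3 or 4 in 30 members, and 34 further barcodes failed that term alone with a sum of 1 or 2. At the C1q limit, 93 members had 0 and 9 had 1 or 2 UMIs, while 9 barcodes failed that term alone, 2 of them with 3 to 9 UMIs and 7 with 10 or more. The neutrophil limit alone kept out 30 barcodes, none of them with fewer than 10 UMIs of its genes. Levels are given as CPM, a gene's share of all UMIs of its group scaled to 1000000. The 30 members just inside the monocyte limit had Plac8 at 2033 and Fn1 at 354 CPM, against 1115 and 20.1 CPM in the 34 barcodes just outside. Treml4 was 379 CPM just inside and 261 CPM just outside, and Cd74 was 2223 CPM just inside and 7341 CPM just outside. Members with a sum of 5 or more (72) had 1157 CPM of Fn1, 81.8 CPM of Treml4 and 1817 CPM of Cd74.

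The members fell along a range from barcodes with genes of marrow progenitors to barcodes with genes of patrolling monocytes. The promoters of Ly6c2 and of 3 granule protease or peroxidase genes whose UMIs lay in the same few barcodes are shown. These genes enter the counts by which the ends of that range are cut below. Their difference between the ends is therefore set by the cuts. Prtn3 and Elane encode serine proteases and Mpo encodes myeloperoxidase, all stored in granules that form at the progenitor stage. The sequences are 300 bases around each RefSeq gene start (GRCm38.p6), written along the gene. They are chr15:75111922-75112221 on the minus strand for Ly6c2, chr10:79879417-79879716 for Prtn3, chr10:79886062-79886361 for Elane and chr11:87793534-87793833 for Mpo, the last 3 on the plus strand. Capitals mark GAGGAAGT, a core of the type that PU.1 and related Ets factors recognise, searched on both strands (reverse complement ACTTCCTC).
Ly6c2: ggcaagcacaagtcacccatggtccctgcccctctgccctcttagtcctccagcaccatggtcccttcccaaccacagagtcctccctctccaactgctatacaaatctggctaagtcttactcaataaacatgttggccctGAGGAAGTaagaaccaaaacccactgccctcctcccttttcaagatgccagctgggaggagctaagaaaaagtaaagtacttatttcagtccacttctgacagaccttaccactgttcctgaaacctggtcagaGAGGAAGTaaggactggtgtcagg
Prtn3: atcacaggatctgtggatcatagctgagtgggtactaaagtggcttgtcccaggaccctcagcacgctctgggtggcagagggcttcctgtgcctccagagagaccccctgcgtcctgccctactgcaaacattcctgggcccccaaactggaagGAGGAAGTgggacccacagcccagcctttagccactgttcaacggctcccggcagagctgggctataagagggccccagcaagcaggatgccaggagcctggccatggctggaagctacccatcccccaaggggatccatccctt
Elane: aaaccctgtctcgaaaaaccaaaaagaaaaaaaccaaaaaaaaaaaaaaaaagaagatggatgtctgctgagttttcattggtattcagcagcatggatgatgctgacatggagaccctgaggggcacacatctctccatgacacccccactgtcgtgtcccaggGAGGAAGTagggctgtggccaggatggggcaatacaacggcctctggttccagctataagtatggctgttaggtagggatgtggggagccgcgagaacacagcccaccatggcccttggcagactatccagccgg
Mpo: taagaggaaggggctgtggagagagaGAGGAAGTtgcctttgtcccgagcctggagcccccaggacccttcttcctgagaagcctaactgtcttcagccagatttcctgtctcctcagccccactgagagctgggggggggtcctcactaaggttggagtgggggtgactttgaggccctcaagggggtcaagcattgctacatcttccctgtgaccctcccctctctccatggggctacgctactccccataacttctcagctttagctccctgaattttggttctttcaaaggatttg
Ly6c2 had 2 matches and the other 3 promoters had 1 each. Of 27025 promoters in the RefSeq table, 887 (3.28%) held a match. Among promoters of the granulocyte-monocyte progenitor genes 3 of 10 held one, and these are the 3 printed here (Prtn3, Elane and Mpo). Ctsg and Ms4a3, also of that list, were not among the matches. Among neutrophil genes 3 of 13 promoters held one (Ly6g, Mmp8 and S100a8), and among resident macrophage genes 2 of 17. Among classical monocyte genes it was 1 of 10 (S100a4) and among non-classical genes 1 of 12 (Adgre4). The promoters of Ace and Treml4 held none. The motif was chosen with the genes already known, and a match is a description of these letters only.

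Of the 102, 8 members had 10 or more UMIs of Elane, Mpo, Prtn3 and Ctsg in sum and are called progenitor-gene monocytes below. Another 19 had more Ace UMIs than Ly6c2 and Chil3 UMIs together and are called Ace-side monocytes. The other 75 are called the middle. These are ranges cut from counts and not types. The limit of 10 UMIs was set after the values were seen, 3 members lay close under it with 4 to 9 UMIs, and 18 members with an Ace UMI lay within 1 UMI of the Ace cut.

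**Figure D1:**
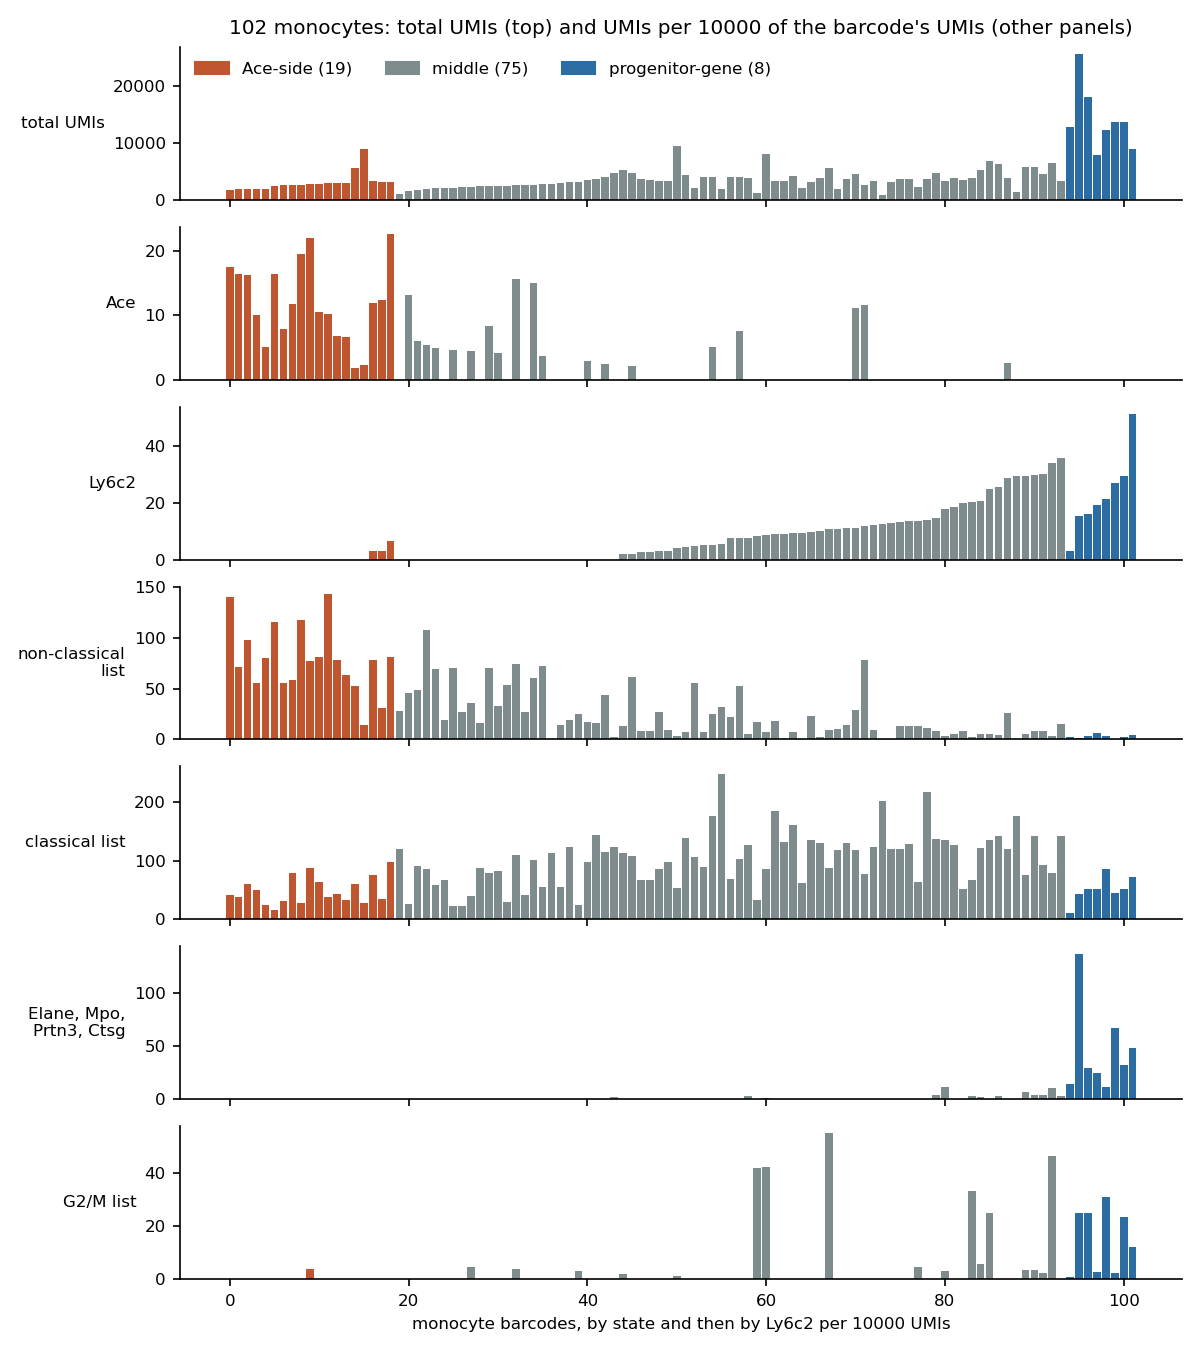
Each column is 1 of the 102 monocytes, in 3 blocks: 19 Ace-side, 75 middle and 8 progenitor-gene monocytes, ordered inside a block by Ly6c2. The panels give total UMIs per barcode and then UMIs per 10000 of Ace, Ly6c2, the non-classical list, the classical list, Elane+Mpo+Prtn3+Ctsg and the G2/M list. The G2/M panel leaves out the gene Hmgb2. The non-classical panel is tallest in the Ace-side block, with a median of 77.8, and the classical panel in the middle block, with a median of 107.

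The 8 progenitor-gene monocytes were among the largest barcodes, which a limit on raw counts favours, with 7853 to 25542 UMIs and a median of 13177.5, against 796 to 9531 in the middle and 1709 to 8919 on the Ace side. Prtn3 had 366 UMIs over 21 members, of which 170 were in 1 barcode. Mpo had 133 UMIs with 94 in 1 barcode, and Elane had 88 with 60 in 1 barcode. Ctsg, the granule protease cathepsin G, had 71 UMIs, all in these 8, and Ms4a3, a gene that marks granulocyte-monocyte progenitors in mice, had 24 UMIs in 5 of them. The barcode of the most UMIs carried 53.0% of all UMIs of the 4 cut genes in the 102 members. These genes were therefore concentrated in few barcodes, while 81 members had 0 UMIs of the 4. Ly6c2 was present in all 8, with 4 to 46 UMIs each. A barcode of the 8, with 12775 UMIs, also held 398 UMIs of the collagen genes Col1a1 and Col1a2, and whether it held more than 1 cell was not tested.

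Summed cell cycle genes were highest in the same group of barcodes. The 20 G2/M genes summed to 3545 CPM in the progenitor-gene monocytes, 1570 CPM in the middle and 259 CPM on the Ace side. Hmgb2, 1 of the 20, gave a large part of these sums. The highest G2/M count of a member was 95 UMIs in the progenitor-gene monocytes, 66 in the middle and 3 on the Ace side. With Hmgb2 left out, the highest counts were 64, 34 and 1. The 20 S phase genes summed to 1715, 338 and 380 CPM in that order. Before thinning, 12.75% of the members had a UMI of Mki67 or Top2a, which are expressed in dividing cells. With each barcode thinned to 1000 UMIs, 8 of 101 members had one (7.92%, 3.48% to 15.0%; 1 shallower member was left out). Thinned the same way, the share was 5 of 8 in the progenitor-gene monocytes, 3 of 74 in the middle and 0 of 19 on the Ace side, where 0 of 19 has an upper 95% limit of 17.6%. Thinned to 2000 UMIs, it was 2 of 8 in the progenitor-gene monocytes (3.19% to 65.1%), 5 of 66 in the middle and 1 of 14 on the Ace side, so these shares give no stable order. The share thinned to 1000 UMIs was 5.87% in C1q macrophages (3.83% to 8.54%) and 2.11% in neutrophils (0.26% to 7.40%), intervals that overlap that of the monocytes. At 2000 UMIs it was 9.09% in monocytes, against 11.8% in macrophages and 9.09% in neutrophils, and the order of the classes changed with the depth. Without the 8 progenitor-gene monocytes the thinned share was 3.23%.

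On the Ace side, genes of patrolling monocytes were high and genes of classical monocytes low. The 19 Ace-side monocytes (57941 UMIs) were set against the other 83 (375651 UMIs) over 1882 genes with at least 30 UMIs in both together, here called measured. Of these, 178 were higher by 2-fold or more on the Ace side (9.46%) and 309 lower by as much (16.4%), with a median log2 ratio of −0.12. Below, counts of higher and lower genes use that 2-fold limit. Without the 8 progenitor-gene monocytes on the other side, the numbers were 95 and 190. Leaving those barcodes out also lowers the number of measured genes, which is not given here, so these numbers cannot be read as shares. Of 11 measured non-classical genes, 10 were higher and 0 lower, with a median log2 ratio of 2.47, and 2.01 against the middle alone. Of 14 measured classical genes, 0 were higher and 9 lower, with a median of −1.33, and −1.74 against the middle alone. The median share of mitochondrial UMIs, a sign of RNA quality, was 10.7% in Ace-side monocytes and 7.81% in the others (8.59% in the middle and 5.47% in the progenitor-gene monocytes). With barcodes limited to 10% mitochondrial UMIs, 145 genes were higher and 252 lower on the Ace side, again without the number of measured genes.

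Gngt2, a G protein gamma subunit, was 1329 CPM in Ace-side monocytes and 301 CPM in the others (log2 ratio 2.14, 1.71 to 2.57), with a UMI in all 19. Nr4a1, on which non-classical monocytes depend, was 932 against 242 CPM (1.94, 1.43 to 2.45). It is also an immediate early gene that tissue digestion can induce, and 5 of 18 genes of that response were higher and 1 lower on the Ace side, with a median of 0.49, or 3 higher and 1 lower against the middle alone. The part of digestion in Nr4a1 was not tested. Itgal, the alpha chain of the integrin LFA-1, was 863 against 226 CPM (1.93, 1.40 to 2.45). Treml4, a receptor of the TREM family, was 449 against 87.9 CPM (2.35, 1.55 to 3.14), and Ear2, an eosinophil-associated ribonuclease, 414 against 74.5 CPM (2.47, 1.63 to 3.31). Spn, encoding the sialoprotein CD43, was 328 against 45.3 CPM (2.86), and Adgre4, an adhesion receptor, 311 against 37.3 CPM (3.06). Cd36, a scavenger receptor, was 570 against 47.9 CPM (3.57), and Pou2f2, a B and myeloid cell transcription factor, 397 against 66.6 CPM (2.58). Clec4a3 was the measured member of the list that did not reach 2-fold, at 224 against 152 CPM (0.56, −0.43 to 1.45). Below the limit of 30 UMIs, Cd300e had 18 of its 20 UMIs on the Ace side and Tcf7l2, a transcription factor of the Wnt pathway, 11 of 17. The Ace-side share of the other unmeasured non-classical list genes, Cx3cr1, Fabp4 and Eno3, is not reported here.

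Of 11 measured chemokine receptor and adhesion genes, 6 were higher and 1 lower on the Ace side, or 4 and 1 against the middle alone. Cxcr4, the receptor that holds cells in marrow, was 777 against 261 CPM (1.57, 1.03 to 2.10). The integrin chains Itga4 and Itgb2 had ratios of 1.33 and 1.26. Fcgr4, the Fc receptor of non-classical monocytes, had a ratio of 2.62, and Slc11a1, a metal transporter of phagosomes, 2.70. Tnf was 311 against 82.5 CPM (1.91), while Ccl2 was 17.3 against 154 CPM (−3.16), 1 UMI on the Ace side. Dusp2, a phosphatase of MAP kinases, was 828 against 170 CPM (2.28), and the cathepsin Ctsb 1726 against 567 CPM (1.61). Ptn, a growth factor of mesenchyme, also ranked among the higher genes, but 44 of its 45 UMIs on the Ace side were in 1 barcode.

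The 10 lowest genes on the Ace side included genes of granules and of classical monocytes, and also Mt1, a metallothionein, and Slpi (ratios of −4.34 and −4.43, on 2 and 1 Ace-side UMIs). F13a1, coagulation factor XIII, had 0 UMIs in Ace-side monocytes, against 556 CPM in the others, which at a floor of 3 counts over the group is at least 10.7-fold lower. Prtn3 was likewise at least 18.8-fold lower and Mpo at least 6.84-fold lower, but 342 of 366 Prtn3 UMIs and 131 of 133 Mpo UMIs were in the 8 progenitor-gene monocytes. In the middle they were 91.2 and 7.60 CPM, on 24 and 2 UMIs, and neither was measured on the Ace side against the middle alone. Fn1, fibronectin, was 86.3 against 1153 CPM (−3.74, −5.37 to −2.51), and Thbs1, thrombospondin, had a ratio of −3.27. S100a8 and S100a9, the calprotectin subunits, had ratios of −4.99 and −4.75, and 489 of their 974 UMIs in all members were in 1 barcode. Vcan, a proteoglycan used to mark classical monocytes, had −2.87 and the chemokine Ccl9 −2.84. Plac8 was 2002 against 2391 CPM (−0.26, −0.55 to 0.02), and Ifitm6 (0.42) and Ccl6 (0.36) also stayed within 2-fold. Of 19 cytoskeleton and motility genes 8 were lower, among them S100a10 (−2.37), Lgals3 (−1.61) and S100a4 (656 against 1499 CPM, −1.19).

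**Figure D2:**
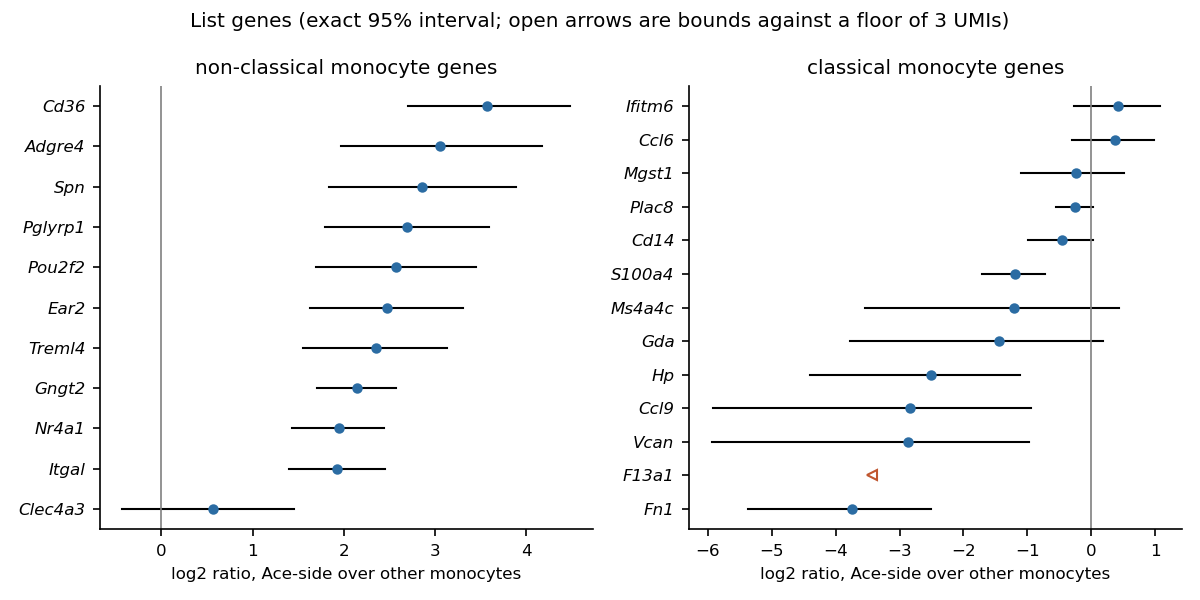
The log2 ratio of 19 Ace-side over 83 other monocytes (horizontal axis) is drawn for genes of the non-classical and the classical list, with exact 95% counting intervals as lines. Points to the right of 0 are higher on the Ace side: the non-classical genes drawn lie past 1 except Clec4a3, and most of the classical genes drawn lie past −1.

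Among MHC class II genes, which present antigen, H2-Aa, H2-Ab1 and Cd74 summed to 20 or more UMIs in 16 members, 3 of them on the Ace side, 13 in the middle and 0 among the progenitor-gene monocytes. They were at 0 in 50 members, and 1 member had 179. Interferon response genes summed to 1457 CPM in the progenitor-gene monocytes, 6975 CPM in the middle and 6230 CPM on the Ace side.

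Next the monocytes were set against 428 C1q macrophages (2352071 UMIs), the tissue's other mononuclear phagocytes, defined by at least 10 C1q UMIs and at most 2 UMIs of the 4 monocyte genes. Of 7537 measured genes, 642 were higher in monocytes (8.52%) and 1613 lower (21.4%), with a median log2 ratio of −0.16. Of 14 measured classical genes, 13 were higher and 0 lower, with a median of 4.10. Of 12 measured non-classical genes, 7 were higher and 1 lower. Resident macrophage genes were all on the other side, with 20 of 20 measured genes lower and a median of −4.61. Genes at 0 on 1 side enter these medians at their bound.

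Plac8, a small cysteine-rich protein of myeloid cells, was 2339 CPM in monocytes and 33.2 CPM in macrophages (log2 ratio 6.14, 5.81 to 6.49). Thinned to 1000 UMIs, 74.3% of monocytes had a Plac8 UMI, against 1.41% of macrophages. Fn1 was 1010 against 12.3 CPM (6.36, 5.81 to 6.95) and S100a4, a calcium-binding protein of motile cells, 1386 against 37.4 CPM (5.21, 4.89 to 5.55). Hp, haptoglobin, was 348 CPM against 0, at least 273-fold higher. Slpi, a protease inhibitor, was 325 against 0.425 CPM (9.58, on 1 macrophage UMI) and Thbs1 588 against 9.78 CPM (5.91). Hopx, an atypical homeobox gene, was 279 against 1.70 CPM (7.36) and Ifitm6, a membrane protein of the interferon-induced family, had a ratio of 6.57. F13a1, which macrophages of many tissues also express, was closer, at 482 against 274 CPM (0.82).

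Several macrophage genes were at or near 0 in monocytes. Mrc1, the mannose receptor, was 2.31 against 929 CPM (−8.65, on 1 monocyte UMI), Pf4 9.23 against 2295 CPM (−7.96) and Ms4a7 4.61 against 813 CPM (−7.46). Fcrls was 0 against 494 CPM, at least 71.3-fold lower. Apoe, which carries lipids out of macrophages, was 1529 against 23389 CPM (−3.94, −4.05 to −3.83), the macrophage list gene with the most UMIs in monocytes (663). It was 2723 CPM in droplets of 1 to 20 UMIs, which hold free RNA, and 0 in dendritic cells; the part of free RNA in the monocytes' Apoe was not tested. The receptor Cx3cr1, often used for non-classical monocytes, was lower too, at 43.8 against 399 CPM (−3.19).

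Of 19 measured transcription factors 3 were higher and 3 lower, with a median of 0.08. Without the 8 progenitor-gene monocytes 5 were higher and 3 lower. Over all measured genes 8.52% were higher and 21.4% lower, so staying within 2-fold was not particular to this list. Cebpb, a factor of monocyte development, was 2740 against 740 CPM (1.89, 1.78 to 2.00), Id3 925 against 179 CPM (2.37) and Runx3 had a ratio of 1.30. Maf, which maintains macrophages, was 20.8 against 747 CPM (−5.17), and Cebpa had −1.48. Spi1, encoding PU.1, was 353 against 371 CPM (−0.07, −0.33 to 0.18), and Nr4a1 334 against 291 CPM (0.20, −0.07 to 0.46).

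The chemokine ligands of Ccr2 lay with the macrophages. All 7 measured monocyte chemokines were lower in monocytes, with a median of −5.47. Ccl2 was 136 against 6037 CPM (−5.47, −5.87 to −5.10), Ccl7 13.8 against 2323 CPM (−7.39) and Ccl12 0 against 881 CPM, at least 127-fold lower. Ccl4, another chemokine, was 80.7 against 2876 CPM (−5.16). Of 16 chemokine receptor and adhesion genes, 10 were higher and 3 lower. Itgb7, an integrin chain, was 92.3 against 0.85 CPM (6.76), Itga4 314 against 60.4 CPM (2.38), Itgb2 265 against 48.9 CPM (2.44), Cd44 404 against 45.9 CPM (3.14) and Cxcr4 330 against 124 CPM (1.41). Ccr1 was lower (−1.77). The growth factors Csf1 and Il34, ligands of Csf1r, had 0 UMIs in monocytes, and Csf1 was 31.7 CPM in endothelial barcodes.

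**Figure D3:**
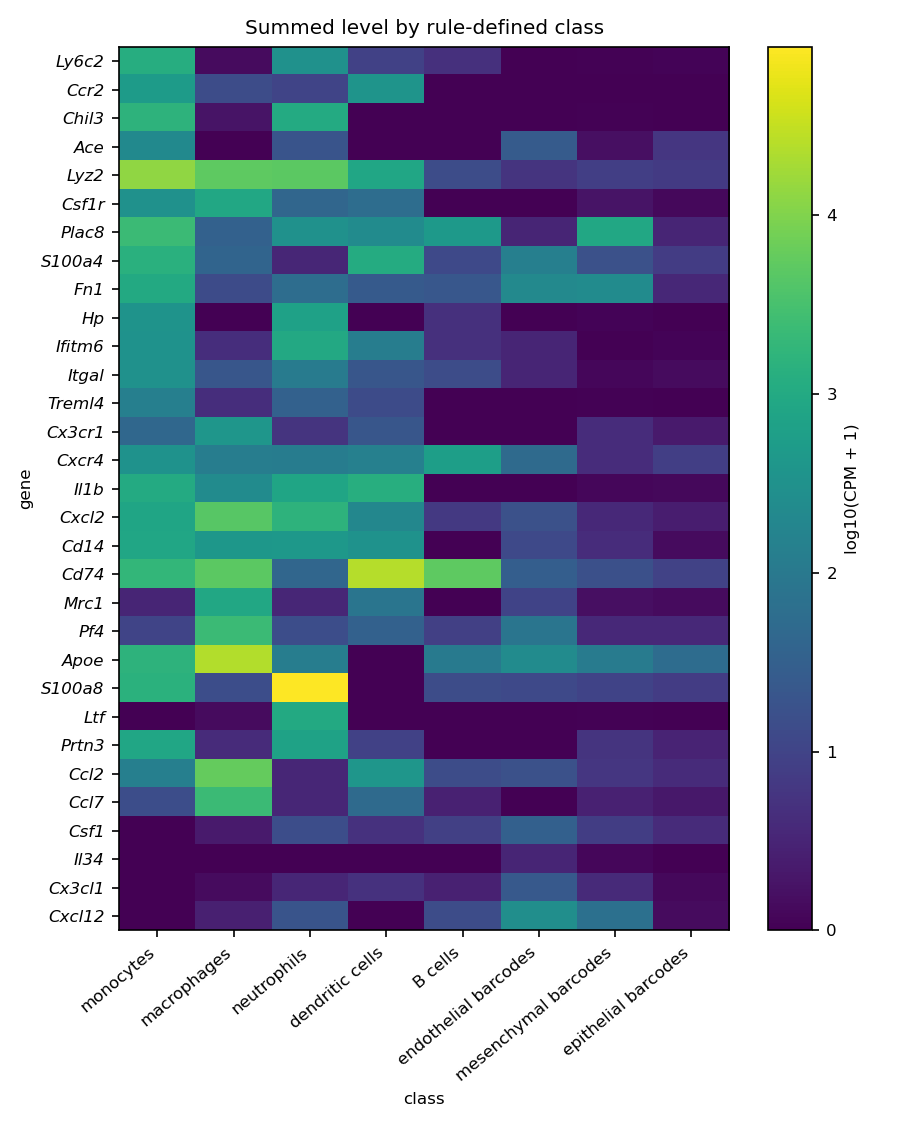
Levels of selected genes (rows) in 8 classes of barcodes (columns, monocytes first) are drawn as the log10 of CPM + 1, with colours from dark blue (low) to yellow (high). The monocyte column is high for Plac8 (2339 CPM) and low for Mrc1 (2.31 CPM) and Ccl7 (13.8 CPM), which are high in the macrophage column.

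Inflammatory genes were split, with 3 of 18 higher and 8 lower. Il1b, the cytokine interleukin-1 beta, was 1056 against 240 CPM (2.14, 1.96 to 2.32), and Ptgs2, which makes prostaglandins, 203 against 94.0 CPM (1.11). Tnf was 113 against 815 CPM (−2.85), and Cxcl2, which attracts neutrophils, 796 against 4545 CPM (−2.51). Among pattern recognition genes 5 of 17 were higher and 4 lower. Clec4e, a receptor for mycobacterial glycolipid, was 198 against 11.5 CPM (4.11) and Clec4n, a receptor for fungal mannan, 9.23 against 331 CPM (−5.17). Complement and coagulation genes gave 4 higher and 5 lower of 11, with C3 at 203 against 12.3 CPM (4.04), Plaur, the urokinase receptor, at 496 against 54.9 CPM (3.18) and the C3a receptor C3ar1 at 2.31 against 294 CPM (−6.99, on 1 monocyte UMI). Ifitm3, which blocks virus entry, was 3007 against 455 CPM (2.72, 2.61 to 2.84), while Bst2, which tethers virus particles, had −2.31. Over 17 interferon response genes 4 were higher and 2 lower, and without the 8 progenitor-gene monocytes 9 were higher and 2 lower.

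Of the genes of lysosomes and of antigen display, about as many were lower as stayed within 2-fold. Of 22 lysosome and phagocytosis genes, 2 were higher and 11 lower, or 5 and 11 without the 8 progenitor-gene monocytes. Ctsb was 722 against 2627 CPM (−1.86), and Lgmn, an asparaginyl protease, 111 against 1602 CPM (−3.86). Cybb and Ncf4, subunits of the phagocyte oxidase, were the 2 higher genes (899 against 249 CPM, 1.85; and a ratio of 1.55). Of 10 MHC class II genes 0 were higher and 5 lower, with Cd74, the invariant chain, at 1891 against 4859 CPM (−1.36). Slc40a1, the iron exporter ferroportin, was 4.61 against 174 CPM (−5.24), and Hmox1, haem oxygenase, 281 against 653 CPM (−1.21). Of 19 cytoskeleton and motility genes, 15 were higher and 0 lower, with Crip1 at 2304 against 208 CPM (3.47), Vim, vimentin, at 1730 against 348 CPM (2.31) and Coro1a, an actin-binding protein of leukocytes, at 1029 against 247 CPM (2.06). Fc receptors gave 1 higher and 3 lower of 6, with the high-affinity Fcgr1 at 34.6 against 264 CPM (−2.93). Of the 18 dissociation response genes, 0 were higher and 8 lower in monocytes, with Egr1 at 80.7 against 1310 CPM (−4.02); whether digestion affected the classes unequally was not tested.

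Genes of mature osteoclasts were at or near 0 in the members. Osteoclasts, the bone-resorbing cells around the growing tooth, descend from cells that include monocytes. Of 11 measured genes of the lineage 0 were higher and 6 lower in monocytes than in macrophages. Acp5, tartrate-resistant acid phosphatase, was 34.6 against 207 CPM (−2.58), and Tnfrsf11a, the receptor RANK, 9.23 against 62.5 CPM (−2.76). The fusion genes Dcstamp and Ocstamp, and Calcr, Atp6v0d2, Itgb3, Mmp9 and Oscar, had 0 UMIs in the 102 members, where 3 counts would be 6.92 CPM. List genes that other myeloid cells also express were abundant, with Tyrobp, a signalling adaptor, at 3432 against 2355 CPM and Fos, an immediate early gene, at 600 against 1068 CPM, and the whole list summed to 4555 against 4675 CPM.

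**Figure D4:**
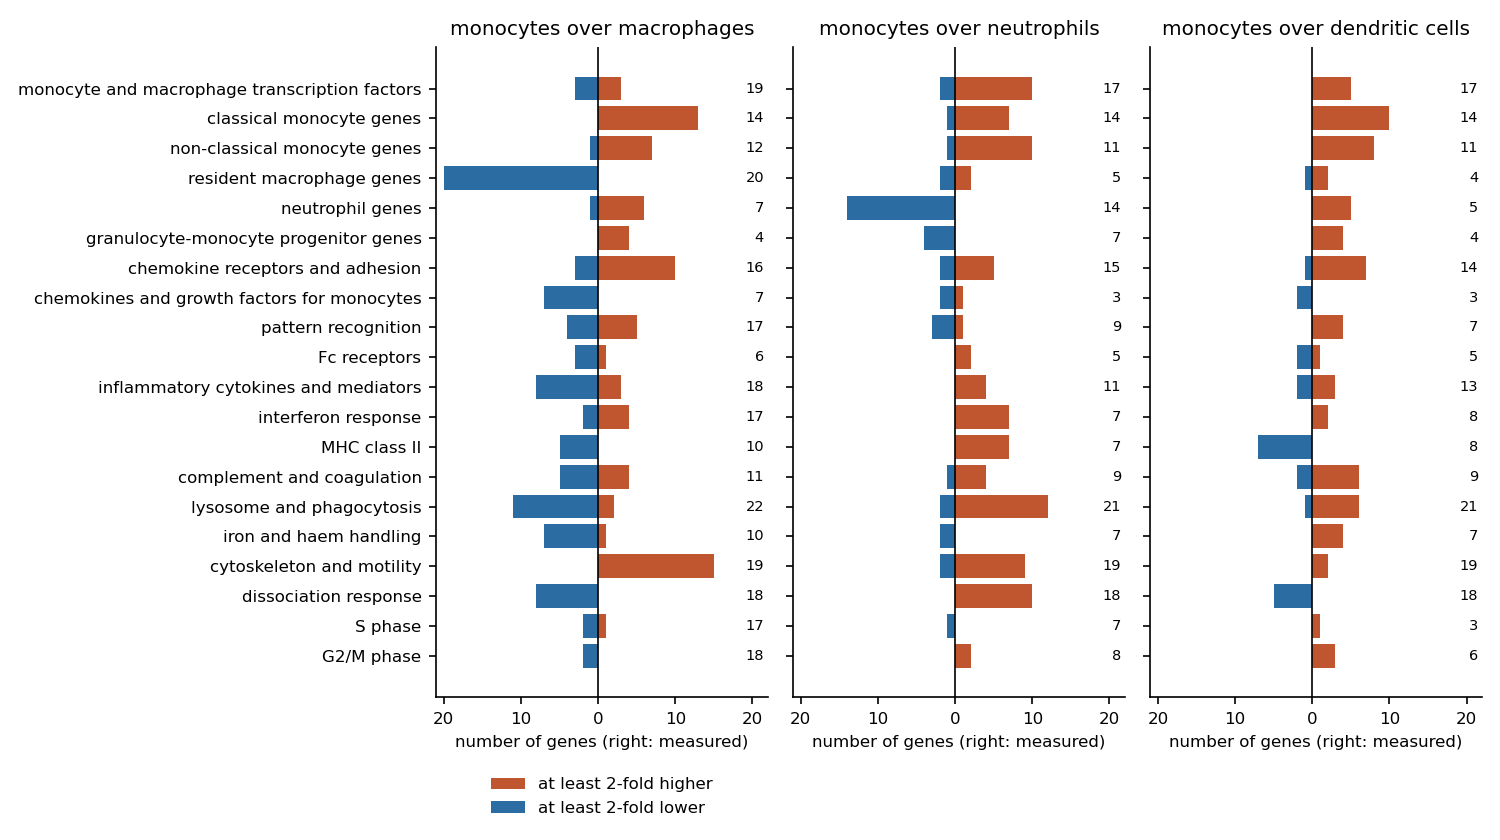
Bars give the number of measured genes at least 2-fold higher in monocytes (right, orange) or at least 2-fold lower (left, blue) for each gene list, with 1 panel per comparison: against C1q macrophages, neutrophils and dendritic cells. The number of measured genes stands at the right. Against macrophages the classical list lies to the right (13 of 14) and the resident macrophage list to the left (20 of 20).

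Neutrophils (95 barcodes, 430791 UMIs) were the class nearest in Ly6c2 and Chil3, with 1192 and 1587 CPM in monocytes and 320 and 1031 CPM in neutrophils, as a description. They were defined by at least 10 UMIs of Ngp, Camp and Retnlg. Of 3263 measured genes, 748 were higher in monocytes (22.9%) and 332 lower (10.2%), with a median of 0.45. A few granule genes took much of the neutrophils' UMIs. With genes above 1% of either group left out of the totals, 432 were higher and 468 lower, and the median was 0.06. Leaving those genes out lowers every ratio by the same amount, so medians are given with both totals. The neutrophil barcodes also held enamel genes: the 6 epithelial genes summed to 1158 CPM in monocytes and 46289 CPM in neutrophils, and 4 of 4 measured were lower. Ambn, ameloblastin, was 145 against 8155 CPM (−5.81), and 5 neutrophils had over 50 UMIs of Amelx and Ambn. Without barcodes of many enamel, collagen, epithelial or endothelial UMIs (91 monocytes, 78 neutrophils, added after seeing the data), 908 genes were higher and 270 lower, and Ambn was at −1.06. The number of measured genes under that setting is not given here.

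All 7 measured MHC class II genes were higher in monocytes, with a median of 5.21, or 4.82 with the reduced totals. Cd74 was 1891 against 41.8 CPM (5.50, 4.83 to 6.26). These are sums over uneven members: 49.0% of monocytes had a Cd74 UMI and 24.5% an H2-Aa UMI. A single monocyte barcode held 17.2% of the UMIs of the class II list. Of 11 non-classical genes 10 were higher and 1 lower, with a median of 3.99, or 3.60 with the reduced totals, and Pglyrp1, a peptidoglycan-binding granule protein, was the lower one (106 against 1149 CPM, −3.44). All 7 measured interferon genes were higher, with a median of 2.26, or 1.88 with the reduced totals, and Irf8, which turns progenitors from neutrophils to monocytes, was 106 CPM against 0, at least 15.2-fold higher. S100a4 was 1386 against 2.32 CPM (9.22, on 1 neutrophil UMI), Ctss, a cathepsin of antigen processing, 805 against 13.9 CPM (5.85) and Klf4, a factor of monocyte development, 330 against 37.1 CPM (3.15). F13a1 was 482 against 16.2 CPM (4.89) and Fn1 1010 against 58.0 CPM (4.12).

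Of 14 measured classical monocyte genes, 7 were higher and 1 lower with a median of 1.38, and 7 higher and 3 lower with a median of 0.99 with the reduced totals. Ifitm6, the lower one, was 323 against 977 CPM (−1.60). All 14 measured neutrophil genes were lower in monocytes. S100a9 was 812 against 89566 CPM (−6.79) and S100a8 1435 against 87049 CPM (−5.92). Ltf, lactoferrin, was 0 against 1017 CPM, at least 147-fold lower, and Ly6g, the surface marker of mouse neutrophils, 0 against 258 CPM, at least 37.2-fold lower. Cebpe, a factor of granulocyte maturation, was 6.92 against 200 CPM (−4.85). Of the S100a8 and S100a9 UMIs in monocytes, 489 of 974 were in 1 barcode, and 9 members had 10 or more. Both genes stood at 2173 and 2497 CPM in droplets of 1 to 20 UMIs, above the monocytes, and the part of free RNA in them was not tested. Prtn3 was 844 against 710 CPM (0.25) and Elane 203 against 627 CPM (−1.63). Without the 8 progenitor-gene monocytes, Prtn3 turned lower, at 74.8 CPM (−3.25), Elane was 9.34 CPM (−6.07), and 7 of 7 measured progenitor genes were lower, with a median of −4.20.

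Dendritic cells (47 barcodes, 244548 UMIs), defined by Cd209a or Flt3 with H2-Aa, H2-Ab1 and Cd74, were the last class compared. Of 2731 measured genes, 417 were higher in monocytes (15.3%) and 185 lower (6.77%), with a median of 0.23. Classical genes were higher for 10 of 14 and lower for 0 (median 2.62), and non-classical genes for 8 of 11 and lower for 0 (median 1.66). Apoe was 1529 CPM against 0, at least 125-fold higher, and Hp 348 CPM against 0, at least 28.4-fold higher. Thbs1 was 588 against 4.09 CPM (7.17) and F13a1 482 against 4.09 CPM (6.88), each on 1 dendritic cell UMI. Plac8 was 2339 against 245 CPM (3.25, 2.88 to 3.65), Vcan 224 against 4.09 CPM (5.77) and Itgal 311 against 20.4 CPM (3.93). S100a4 was 1386 against 1112 CPM and did not reach 2-fold, and Il1b was 1056 against 1264 CPM (−0.26).

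MHC class II genes were lower in monocytes for 7 of 8, with a median of −4.04. Of this list H2-Aa, H2-Ab1 and Cd74 were used to define the dendritic cells, so the count and the median partly follow from that choice. H2-Eb1, which the definition did not use, was 441 against 11425 CPM (−4.70, −4.92 to −4.48). Mgl2 and Clec10a, lectins of dendritic cells, were 6.92 against 450 CPM (−6.02) and 13.8 against 433 CPM (−4.97). Of 9 complement and coagulation genes 6 were higher and 2 lower, with C3 at 203 CPM against 0, at least 16.5-fold higher. Of 19 cytoskeleton genes 2 were higher and 0 lower, and of 18 dissociation response genes 0 were higher and 5 lower. Col1a1, which also ranked among the higher genes, had 371 of its 459 UMIs in 1 monocyte barcode.

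**Figure D5:**
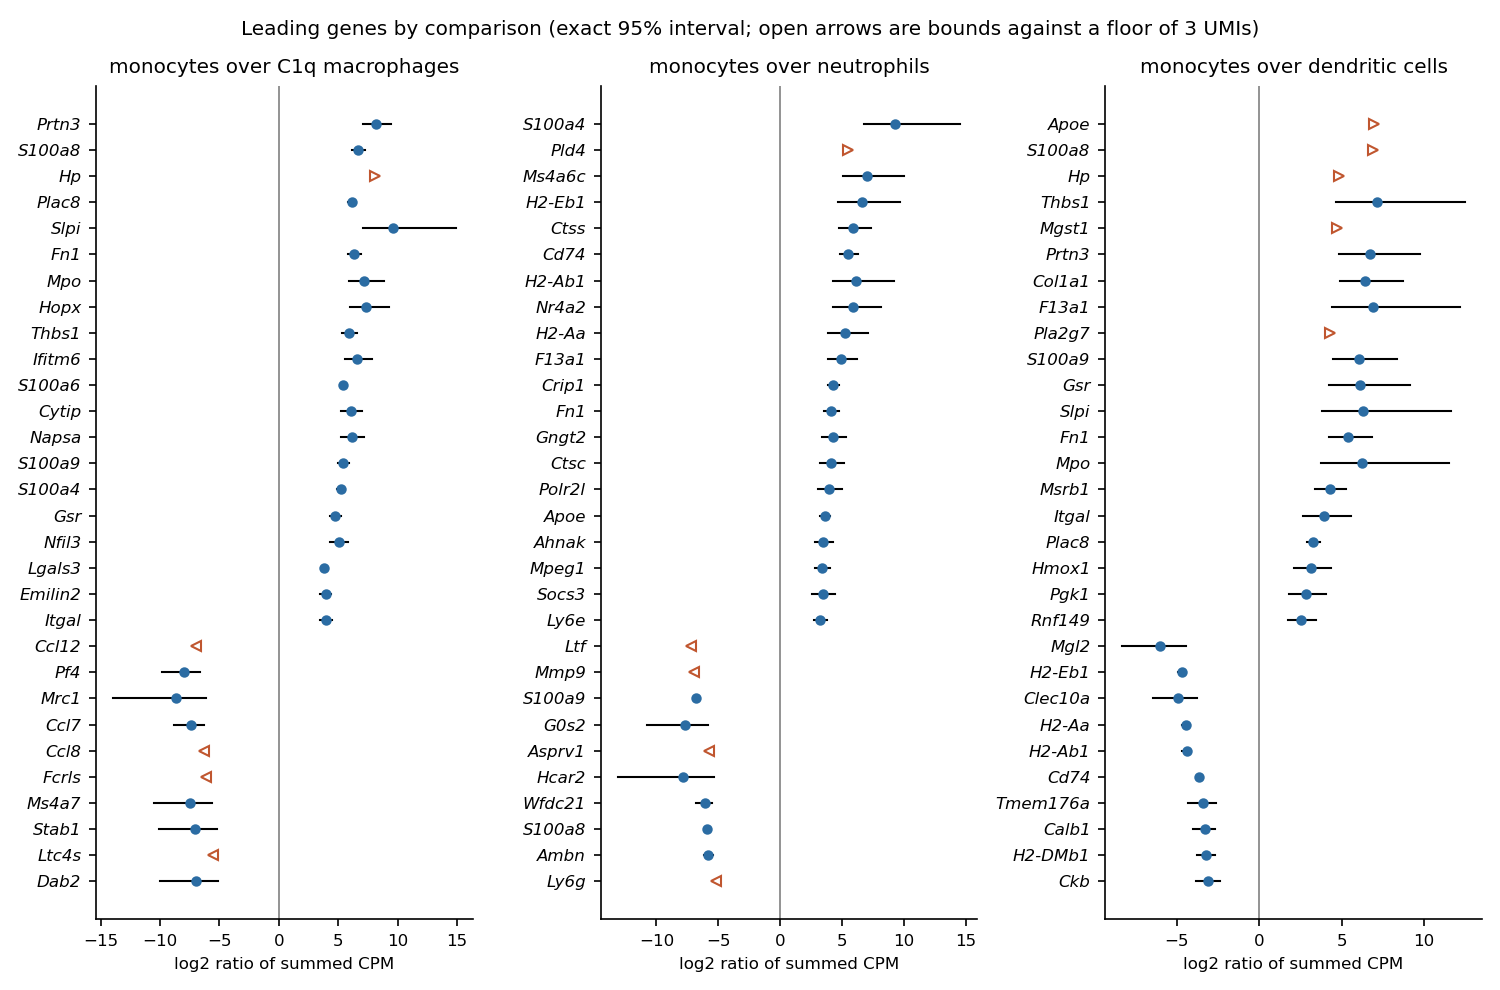
Log2 ratios (horizontal axis) of monocytes over C1q macrophages, neutrophils and dendritic cells, 1 panel each, are drawn for the 20 highest and 10 lowest genes with at least 100 UMIs in both groups together. Lines are exact 95% counting intervals and open arrows are bounds where 1 group had 0 UMIs. Plac8 (6.14) and Fn1 (6.36) lie far to the right against macrophages.

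Markers of other cells were few in the members. The whole lists summed to 4 UMIs for NK cells, 1 for T cells, 0 for basophils and mast cells, 1 for platelets, 2 for erythroid cells, 3 for endothelium and 8 for dendritic cells outside the rule. B cell genes had 60 UMIs, 18 of them in 1 barcode. Mesenchymal genes had 593 UMIs, 458 in 1 barcode and 87 in another, and epithelial genes 502, with 166 in 1 barcode. Amelx, amelogenin of the enamel-forming cells, had a UMI in 81.4% of monocytes and in 80.9% of mesenchymal barcodes. The mesenchymal barcodes were deeper, with a median of 7690 UMIs. Thinned to 1000 UMIs the shares were 42.6% and 25.4%, and thinned to 2000 UMIs they were 58.0% and 41.3%. Amelx was 994 CPM in monocytes and 14928 CPM in droplets of 1 to 20 UMIs. The part of free RNA in the monocytes' Amelx was not tested.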

How the data were processed

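The deposited matrix holds raw UMI counts per gene and barcode for all barcodes, per the file headers (format version 2, software version 3.0.2, program not named). It has 31053 genes, 6794880 barcodes and 68931830 UMIs. The submitters' processing notes name mm10, R 3.4.1 and Seurat 3.4.1. The aligner: not given in the sources used here, nor its annotation. The 2 lanes have no map to barcodes, so the matrix was used as 1 sample, and 0 columns belonged to other samples. Pooled animals could not be separated.

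Counts were summed per group (Python 3.11.15, numpy 2.4.6, scipy 1.17.1, pandas 2.3.3, matplotlib 3.10.9). Levels had exact Poisson intervals, ratios exact conditional binomial ones and shares Clopper-Pearson ones, all of 95%. A gene at 0 was set against a floor of 3 counts over the group, and the folds given as "at least" are such floor values and not 95% limits. No doublet caller was run. The rule excludes markers of macrophages, neutrophils, dendritic, B and T cells, but has no term for mesenchyme, epithelium or endothelium. Of the members, 10 held markers of such possible pairs, and 5 had more than 2 UMIs of Col1a1 and Col1a2. How many pairs the rule excluded was not measured. Alternatives left out possible pairs and large barcodes. Thinning to 1000 UMIs drew from each barcode without replacement.

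Named genes were the 20 highest and 10 lowest ratios (5 CPM added to both sides, at least 100 UMIs in both groups) and 2 to 6 genes per list. The 31 lists hold 399 genes, of which Clec7a was not analysed here, and a few are not reported here. Members and lists were chosen with earlier results of these data known. Mesenchymal, epithelial, endothelial and B cell classes, used for context, were defined after the matrix was seen. The scripts were tested on simulated data.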

Additional observations from a re-analysis of the deposited data

How the results depend on the processing

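The 4 comparisons were recomputed under 18 settings, 15 of them planned and 3 added after seeing the data. A limit of 10% mitochondrial UMIs left 67 monocytes, and a monocyte gene sum of at least 5 gave 1.585% of all barcodes. With at least 1000 genes per barcode, 212 genes were lower than in neutrophils. Weighting each barcode equally gave 1186 genes higher than in neutrophils, and leaving genes above 1% out of the totals gave 432. Without barcodes of over 3 times the median UMIs, 106 genes were higher on the Ace side. With genes of at least 10 UMIs, 1040 were higher than in macrophages, 1579 higher and 1011 lower than in neutrophils, 1204 and 551 than in dendritic cells, and 639 and 663 on the Ace side. With at least 100 UMIs these numbers were 276 higher and 626 lower against macrophages, 231 and 84 against neutrophils, 96 and 50 against dendritic cells, and 36 and 75 on the Ace side. The UMI limits change how many genes are counted, and so do settings that leave out barcodes. Shares of measured genes under such settings are not given here. Without the 8 progenitor-gene monocytes (added after seeing the data), 95 genes were higher and 190 lower on the Ace side, and the thinned share with Mki67 or Top2a was 3.226%. Of 1798 values of named genes under these settings, 1641 stayed within their counting interval, 155 moved past it and 2 changed direction. Ptn on the Ace side turned to −0.1707 (log2) at a monocyte gene sum of at least 5, and Calb1 against dendritic cells to 1.432 without barcodes of many enamel, collagen, epithelial or endothelial UMIs (91 monocytes, 45 dendritic cells, added after seeing the data). The cause was not tested. No paired analysis was possible because the matrix is 1 sample. The depth, a median of 3324.5 UMIs per monocyte, limits genes of low level.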

Other observations

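Barcodes that met every term but the C1q limit are given here by their C1q UMIs. The 9 members with 1 or 2 C1q UMIs had 458 CPM of Apoe, 43.6 CPM of the platelet factor gene Pf4 and 2378 CPM of Plac8. The 2 barcodes with 3 to 9 C1q UMIs had 11444 CPM of Apoe, 1734 CPM of Pf4 and 1850 CPM of Plac8. The 7 barcodes with 10 or more had 3275 CPM of Apoe, 668 CPM of Pf4, 215 CPM of Plac8, 16440 CPM of Cd74 and 4072 CPM of Ccl2. Intermediate C1q counts were thus rare among barcodes with monocyte genes, at 2 barcodes. Whether these are cells between monocyte and macrophage or barcodes of more than 1 cell was not tested.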
